A study of Bos taurus with 40 samples.

Results

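The comparison of restricted (RES) with ad libitum (ADLIB) feeding in Period 1 rests on the 10 RES and 10 ADLIB libraries labelled day 125 of that period, 20 of the 40 libraries of the series. The libraries were chosen by their titles and no expression value was used. All animals were Holstein Friesian bulls given 1 diet of 70% concentrate and 30% grass silage. RES bulls were given a limited amount of it throughout Period 1, whereas ADLIB bulls ate without limit. Another 20 bulls, 10 of each group, were sampled on day 55 of Period 2, when RES bulls too were fed without limit. Each library came from 1 animal, and the labels give no age. They name the tissue as jejunal epithelium, while the extraction text deposited with them speaks of muscle. The genes are given as Ensembl identifiers with no names, so the label could not be checked against epithelial marker genes.

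The jejunum is the middle stretch of the small intestine, where digestion of protein, fat and starch is completed and where most amino acids, peptides and sugars are absorbed. Its lining is a single layer of absorptive enterocytes, with goblet, endocrine, tuft and Paneth cells between them, and it is renewed continually from stem cells in the crypts. Gut tissue is costly to maintain, and it is known to shrink when ruminants eat less and to regrow when feed returns. Scraped epithelium is a mixture of cells. A lower value in such a sample can come from fewer cells of a type or from less RNA per cell, and these cannot be told apart here.

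Values are in CPM, a unit that puts the reads of a gene relative to the reads of its library. Here those were the reads on the listed genes, after scaling between libraries. A single read stood for 0.122 to 0.275 CPM, and dividing by that step gave back the reads behind each value. Reads on the 13685 listed genes ranged from 4431390 to 8040444 in ADLIB and from 4662197 to 7583118 in RES libraries. No 2 libraries were identical. RES replicate 6 stood apart, with 87 genes at 0 where the other RES libraries had at most 18, and results that rest on it are given without it too.

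The data showed few differences between RES and ADLIB jejunum that held over animals. With limma on log2(CPM + 1), 0 of 13685 genes (0%) had a Benjamini-Hochberg false discovery rate under 0.001, or under 0.1, and the smallest rate was 0.229. At an unadjusted p under 0.05 there were 494 genes (3.61%), 268 of them higher in RES and 226 higher in ADLIB bulls. edgeR's likelihood ratio test, run on reads rather than CPM, called 15 genes under 0.1, which is 0.110% of the genes tested. Of these, 7 were higher (0.0512%) and 8 lower (0.0585%) in RES bulls. With no scaling factors between libraries it called 11 genes, 3 higher and 8 lower, of which 10 were among the 15. With scaling, the calls of the likelihood ratio test numbered 12 under 0.05, 5 under 0.01 and 0 under 0.001. At an unadjusted p under 0.05 it had 544 genes (3.98%). In no gene did all 10 RES values lie beyond all 10 ADLIB values. An exact two-sided rank-sum test over the 184756 splits of 20 animals gave 0 genes under 0.1 and a smallest false discovery rate of 0.198. It had 453 genes at an unadjusted p under 0.05. In each of these tests with all 20 animals, genes at an unadjusted p under 0.05 were fewer than this threshold passes on average if no gene differs. That did not hold in every alternative. With limma there were 972 such genes with array weights and 860 without ADLIB replicate 1. Without any other single animal limma had between 337 and 643.

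How small a difference could be seen depended on the spread between bulls. The median SD of a gene on the log2(CPM + 1) scale was 0.42 within RES and 0.40 within ADLIB animals. The 95% interval of the group difference reached 0.39 to either side for the median gene. For 91.6% of genes that interval lay between -1 and 1, and for 47.6% it lay between -0.5 and 0.5, where 1 is a change by a factor of 2 in CPM + 1. Without RES replicate 6 the median SD within RES animals was 0.36.

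The 15 genes called by the likelihood ratio test are described next, ranked within each direction by their limma p. Only the first 2 of each direction are given by identifier, since the files pair none with a name. The others are called by direction and rank, such as higher 3 or lower 5. Their functions are therefore not stated.

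ENSBTAG00000006731, the first higher gene, was one of the most consistent. In RES replicates 1 to 10 it was at 35.6, 43.7, 48.7, 45.1, 38.1, 52.3, 62.8, 38.3, 30.8 and 63.5 CPM. In ADLIB replicates 1 to 10 it was at 34.8, 32.3, 14.2, 6.5, 29.1, 22.2, 17.7, 14.3, 29.3 and 17.9 CPM. The groups met only where RES replicate 9 lay under ADLIB replicates 1 and 2, so that the RES value was higher in 98 of 100 pairs of a RES and an ADLIB bull. The means were 45.9 ± 11.1 CPM in RES and 21.8 ± 9.25 CPM in ADLIB animals (SD, n = 10 each). Its log2 fold change was 1.07 with a false discovery rate of 0.0131 (likelihood ratio test). limma put the difference in log2(CPM + 1) at 1.13 (SE 0.23, false discovery rate 0.229). Over the 20 fits that each left out 1 animal, the likelihood ratio test gave a log2 fold change between 0.96 and 1.17 and a false discovery rate of at most 0.0603.

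ENSBTAG00000011327, the second higher gene, had a similar difference but a single high ADLIB animal. RES replicates 1 to 10 were at 27.1, 25.5, 47.7, 36.5, 41.4, 50.3, 33.9, 35.7, 53.1 and 36.4 CPM. ADLIB replicates 1 to 10 were at 45.3, 26.5, 12.5, 7.32, 22.3, 16.9, 10.6, 13.0, 20.4 and 15.2 CPM. ADLIB replicate 1 was above 7 of the 10 RES animals, while 8 of the 10 ADLIB animals were below every RES animal. The means were 38.8 ± 9.32 CPM in RES and 19.0 ± 10.9 CPM in ADLIB animals (SD, n = 10 each), with RES higher in 92 of 100 pairs. The likelihood ratio test gave a log2 fold change of 1.03 with a false discovery rate of 0.0572, and the gene stayed under 0.1 in 11 of 20 leave-one-out fits. Without ADLIB replicate 1 the limma difference on the log2(CPM + 1) scale was 1.27 (SE 0.20, false discovery rate 0.033), against 1.12 (SE 0.23, 0.229) with all 20. It was the only gene that limma called under 0.1 in any of the 20 leave-one-out fits.

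ENSBTAG00000031814, the first lower gene, separated most animals although it was variable within RES. RES replicates 1 to 10 were at 3.13, 1.03, 8.78, 4.94, 15.4, 4.40, 1.47, 11.1, 8.72 and 11.1 CPM. ADLIB replicates 1 to 10 were at 18.7, 35.0, 12.6, 17.1, 17.1, 24.1, 39.0, 24.9, 20.6 and 9.27 CPM. The lowest ADLIB value, replicate 10, was under 3 RES values, and the highest RES value, replicate 5, was above 2 ADLIB values. The means were 7.01 ± 4.75 CPM in RES and 21.8 ± 9.33 CPM in ADLIB animals (SD, n = 10 each), with RES lower in 96 of 100 pairs. In the likelihood ratio test its log2 fold change was -1.63 with a false discovery rate of 0.0186, and of at most 0.0748 in any leave-one-out fit. The limma difference was -1.69 (SE 0.35, false discovery rate 0.229).

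ENSBTAG00000003196, the second lower gene, combined a consistent direction with 1 very high ADLIB animal. RES replicates 1 to 10 were at 12.8, 16.4, 5.85, 9.48, 12.8, 7.43, 21.6, 7.62, 11.8 and 9.57 CPM. ADLIB replicates 1 to 10 were at 15.1, 27.3, 24.0, 46.3, 20.1, 20.8, 22.6, 51.6, 16.8 and 154.6 CPM. Apart from RES replicates 2 and 7, every RES animal was below every ADLIB animal, and RES was lower in 95 of 100 pairs. ADLIB replicate 10 held 38.7% of the summed ADLIB CPM, so the mean of 39.9 ± 42.1 CPM (SD, n = 10) was well above the ADLIB median of 23.3 CPM. The RES mean was 11.6 ± 4.73 CPM (SD, n = 10). Its log2 fold change was -1.79 with a false discovery rate of 0.00800 (likelihood ratio test). Over the leave-one-out fits the fold change lay between -1.93 and -1.23, with a false discovery rate of at most 0.0304. The limma difference, which a single high value moves less, was -1.40 (SE 0.33, false discovery rate 0.513).

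**Figure D1:**
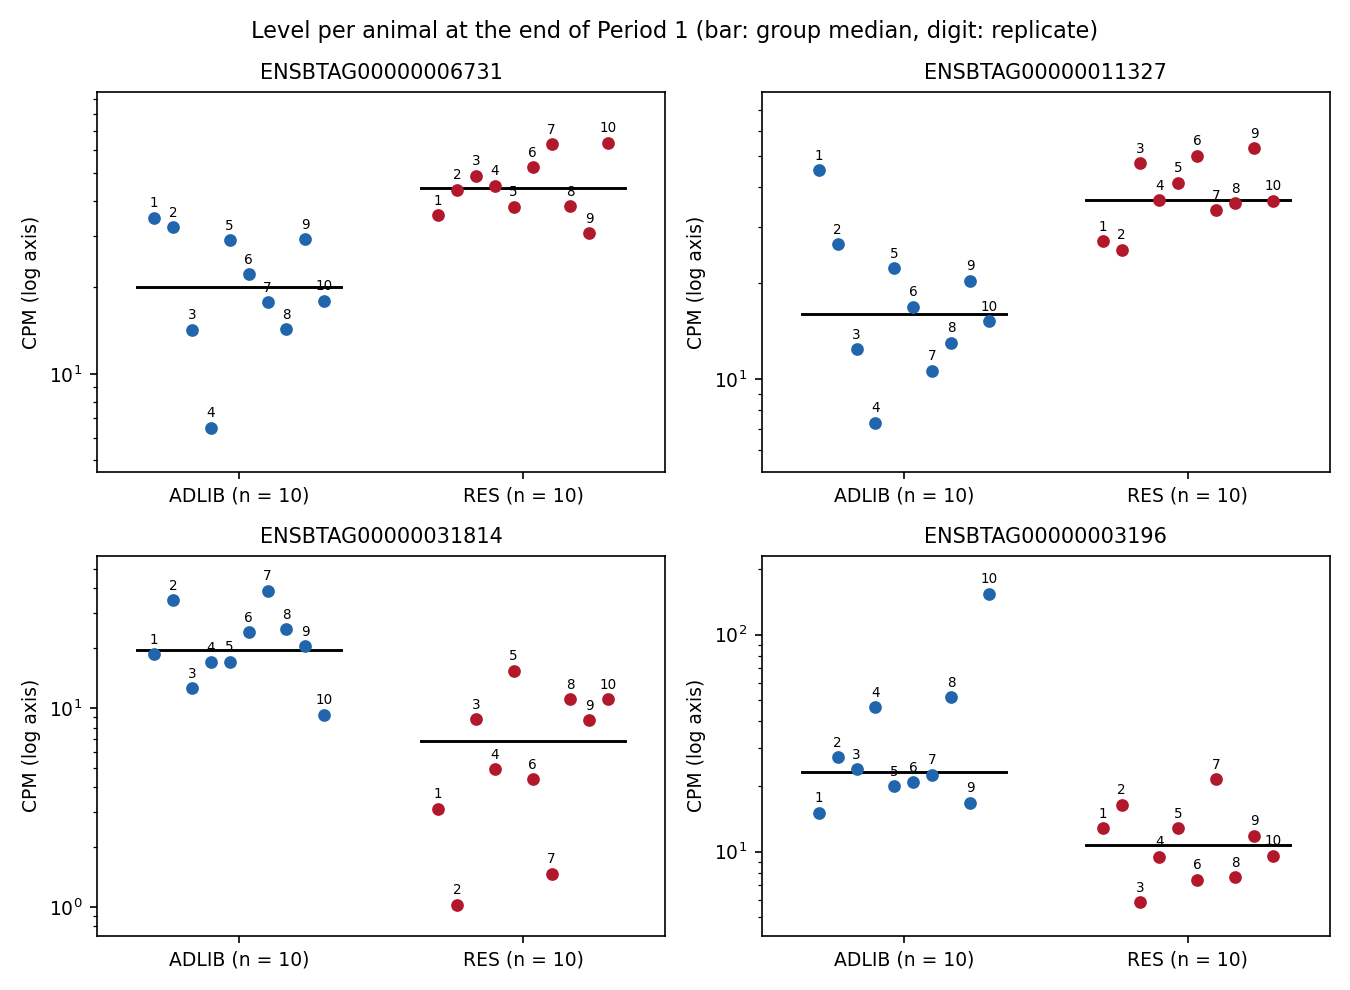
CPM of the 4 genes given by identifier in each Period 1 animal, on a log axis, with ADLIB animals at the left and RES animals at the right of each panel. Each point is 1 animal with its replicate number, and the bar is the group median, which for ENSBTAG00000006731 was 44.4 CPM in RES and 20.0 CPM in ADLIB animals.

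Of the other 5 higher genes, higher 3 to 6 were called in all 20 leave-one-out fits. Higher 3 was at 49.2 CPM in the lowest RES animal, 63.9 at the median and 109 in the highest, against 17.2, 37.1 and 51.7 CPM in ADLIB animals, and RES was higher in 96 of 100 pairs. Its log2 fold change was 1.03 with a false discovery rate of 0.0186 (likelihood ratio test). Higher 4 had the smallest fold change of the 15 genes, with a log2 of 0.71 and a false discovery rate of 0.0176, yet was among the most consistent. It lay between 36.9 and 93.0 CPM in RES animals, with a median of 49.9, and between 23.7 and 42.6 CPM in ADLIB animals, with a median of 34.2. RES was higher in 98 of 100 pairs, and RES replicate 6 was the only RES animal within the ADLIB range. With no scaling factors between libraries, the likelihood ratio test called neither gene, at a false discovery rate of 0.206 for higher 3 and 0.127 for higher 4.

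Higher 5 had the largest log2 fold change among the higher genes, 1.23, with a false discovery rate of 0.00800 (likelihood ratio test). RES replicates 6 and 7 were at 106 and 125 CPM, against a RES median of 54.1 and a highest ADLIB value of 46.6 CPM. The ADLIB median was 25.7 CPM. Without RES replicate 6 the limma difference was 1.02, against 1.13 with it, and RES was higher in 94 of 100 pairs of all animals. Higher 6 was scarcely expressed, with 186 reads in the 10 RES libraries and 80 in the 10 ADLIB libraries. It lay between 1.34 and 4.53 CPM in RES and between 0.635 and 2.36 CPM in ADLIB animals, and RES was higher in 94 of 100 pairs. Its log2 fold change was 1.17 with a false discovery rate of 0.0176 (likelihood ratio test).

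Higher 7 was less stable. RES animals lay between 9.08 and 42.1 CPM, with a median of 17.0, and ADLIB animals between 6.80 and 15.3 CPM, with a median of 9.86. RES was higher in 89 of 100 pairs. On the reads, the likelihood ratio test gave a log2 fold change of 0.97 with a false discovery rate of 0.0686, and the gene stayed under 0.1 in 10 of 20 leave-one-out fits. The rate was largest, 0.256, without RES replicate 9.

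Among the lower genes, lower 3 and lower 4 were at a few reads in most RES libraries. Lower 3 was at 28 reads in the 10 RES libraries together and at 288 in the 10 ADLIB libraries. RES animals lay between 0 and 1.43 CPM, with a median of 0.28, and ADLIB animals between 0.135 and 16.0 CPM, with a median of 2.71. Lower 4 was at 42 reads in RES and 348 in ADLIB libraries, with RES animals between 0.123 and 1.93 CPM and ADLIB animals between 0.122 and 16.4 CPM. RES was lower in 92 of 100 pairs for lower 3 and in 86 for lower 4.

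Both genes were called in all 20 leave-one-out fits. All listed genes exceeded 1 CPM in 10 or more libraries, and both genes did so mainly through ADLIB animals. Their calls are therefore given as a description. The likelihood ratio test gave a log2 fold change of -3.49 (false discovery rate 0.00549) for lower 3 and of -3.12 (0.00800) for lower 4. On the log2(CPM + 1) scale, which compresses low values, the differences were -1.63 (SE 0.39) and -1.65 (SE 0.41). ADLIB replicates 3 and 6 were the highest for both genes, at 14.4 and 16.0 CPM for lower 3 and 14.6 and 16.4 CPM for lower 4. The ADLIB animals were spread far more widely than the RES animals, and ADLIB replicate 4 lay within the RES range for both genes. So did ADLIB replicates 1 and 8 for lower 3 and ADLIB replicate 7 for lower 4. ADLIB replicate 10 was below every RES animal for lower 4.

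Lower 5 was expressed in every animal. RES animals lay between 27.8 and 95.2 CPM, with a median of 72.5, and ADLIB animals between 63.4 and 231 CPM, with a median of 121. The lowest RES value was that of RES replicate 6. RES was lower in 89 of 100 pairs. The likelihood ratio test gave a log2 fold change of -0.95 with a false discovery rate of 0.0445, and the gene stayed under 0.1 in 14 of 20 leave-one-out fits. Without RES replicate 6 the false discovery rate was 0.0475 and the limma difference was -0.76, against -0.90 (SE 0.23) with it.

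Lower 6 was low in all RES animals, between 1.16 and 4.40 CPM with a median of 3.22. Of the 10 ADLIB animals, 8 were above every RES animal, with the highest at 80.9 CPM and the group median at 14.0. ADLIB replicate 10 was at 0.244 CPM, below every RES animal. ADLIB replicate 8, the highest animal, held 43.3% of the summed ADLIB CPM. The log2 fold change was -2.74 with a false discovery rate of 0.00549 (likelihood ratio test), and lay between -2.90 and -2.08 over the leave-one-out fits, in all of which the gene was called.

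Lower 7 and lower 8 were the least stable. Lower 7 had a log2 fold change of -1.97 with a false discovery rate of 0.0973 (likelihood ratio test) and stayed under 0.1 in 7 of 20 leave-one-out fits. RES replicate 6 was its highest RES animal, and without that library the rate was 0.0060. RES animals lay between 1.37 and 12.7 CPM, with a median of 2.59, and ADLIB animals between 2.03 and 34.9 CPM, with a median of 12.2. The large fold change of lower 8 rested on 1 library. ADLIB replicate 10 was at 2734 CPM and held 96.3% of the summed ADLIB CPM, while the other 9 ADLIB animals lay between 3.94 and 19.7 CPM. RES animals lay between 2.20 and 27.4 CPM, with a median of 9.98 against 13.2 in ADLIB. The log2 fold change was -4.71 with a false discovery rate of 0.0176, and without ADLIB replicate 10 it was -0.11 with a false discovery rate of 1.00 (likelihood ratio test).

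**Figure D2:**
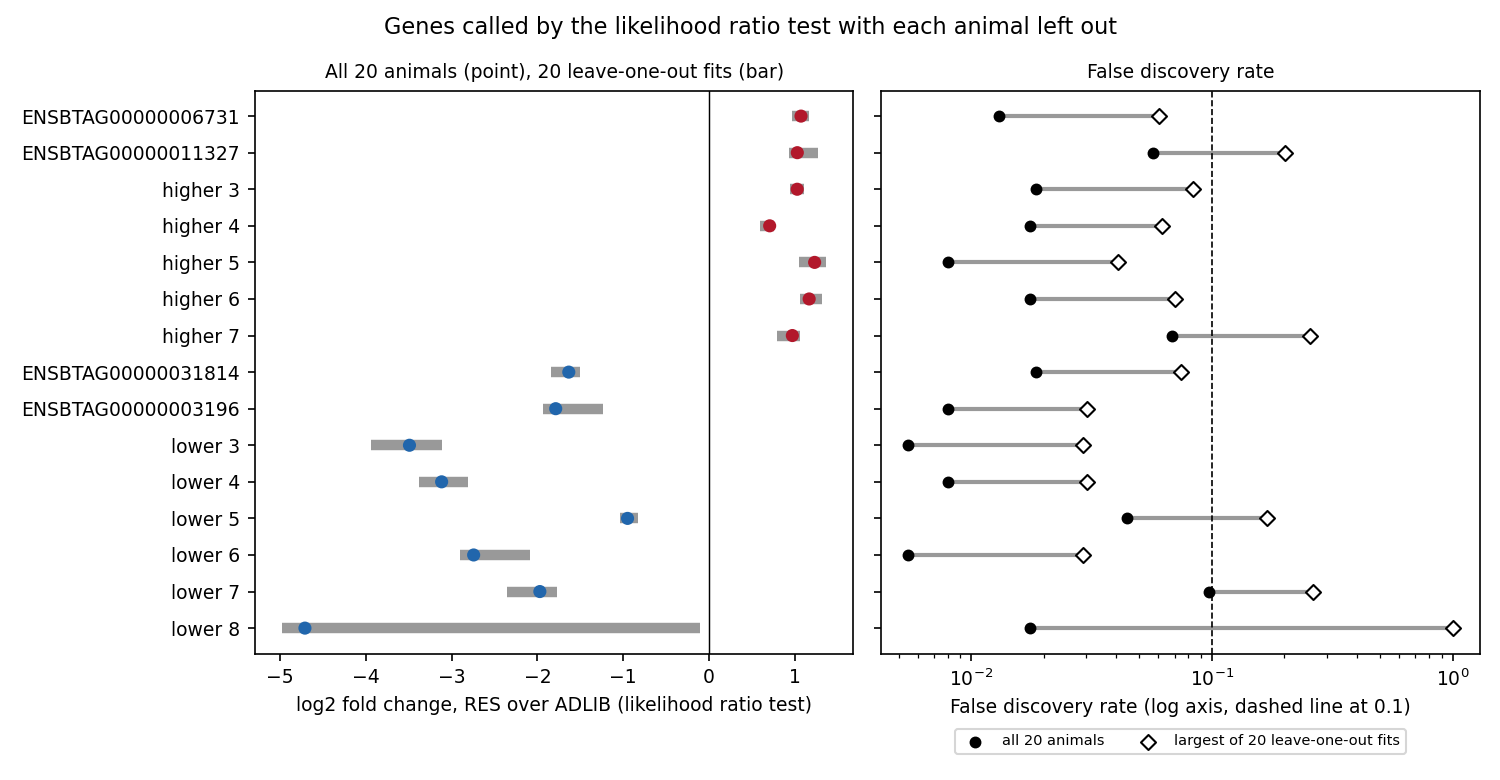
Left, log2 fold change of the likelihood ratio test with all 20 animals (point) and its range over 20 leave-one-out fits (bar) for the 15 called genes. Right, the false discovery rate on a log axis with all 20 animals (filled) and its largest value over the leave-one-out fits (open diamond), which passed 0.1 for higher 2 and 7 and lower 5, 7 and 8.

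In all, 10 of the 15 genes were called in every leave-one-out fit, 5 higher and 5 lower. Among them, higher 6, lower 3 and lower 4 passed the listing level of 1 CPM mainly through the group in which they were higher. The number of calls lay between 11, without RES replicate 5, and 24, without ADLIB replicate 10. It was 23 without RES replicate 6, with all 15 genes among them, and 23 without ADLIB replicate 1. A further 34 genes, 13 higher and 21 lower in RES bulls, were called in at least 1 leave-one-out fit but not with all animals, and 25 of them in 1 fit only. For genes at an unadjusted limma p under 0.05, 214 of 494 (43.3%) stayed so in every fit. For the likelihood ratio test it was 206 of 544 (37.9%). As 494 and 544 are fewer genes than this threshold passes on average if no gene differs, neither is read as a set of differing genes.

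A second way to see consistency is the number of the 100 pairs of animals in which RES was higher. In 7864 genes (57.5%) it lay between 40 and 60. It was at least 95 in 6 genes and at most 5 in 2 genes, and these 8 are 0.0585% of those tested. The likelihood ratio test called 5 of the 8, namely higher 1, 3 and 4 and lower 1 and 2. The other 3 were all higher in RES bulls and were noticed for this number. The first of them was higher in 98 of 100 pairs, at 102.2 ± 36.5 CPM in RES and 68.7 ± 5.95 CPM in ADLIB animals (SD, n = 10 each), a log2 fold change of 0.57 with a false discovery rate of 0.307 (likelihood ratio test). The second was higher in 96 pairs, at 109 ± 19.3 CPM against 58.4 ± 26.4 CPM, and had a false discovery rate of 0.230 in the same test. The third was higher in 95 pairs, at 4.48 ± 0.846 CPM against 2.46 ± 1.03 CPM, with a false discovery rate of 0.105.

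**Figure D3:**
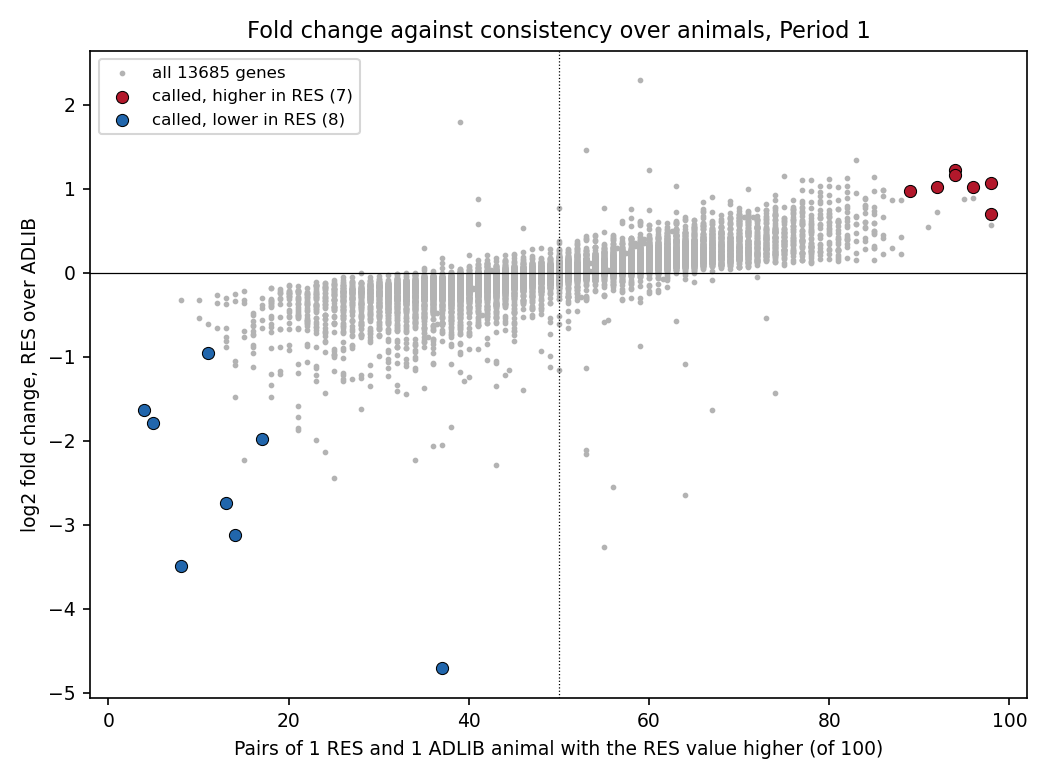
For each of 13685 genes, the log2 fold change of the likelihood ratio test (vertical axis) against the number of 100 pairs of a RES and an ADLIB animal in which RES was higher (horizontal axis), with the 15 called genes in colour. The called gene at -4.71 lies at 37 pairs, far from the other called genes, which lie at 89 or more or at 17 or fewer.

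The log2 fold change of the likelihood ratio test was over 1 in size in 110 genes, 21 higher and 89 lower in RES bulls. Of these, 52 had an unadjusted limma p under 0.05. The limma difference in log2(CPM + 1) was over 1 in size in 41 genes, 15 higher and 26 lower. In 21 of the 110 genes (19.1%), 1 library held over 50% of the summed CPM of the higher group, which was so in 35 of all 13685 genes (0.256%). These 21 were 2 of the 21 higher and 19 of the 89 lower genes. ADLIB replicate 10 was that library in 9 of the 21, ADLIB replicates 4 and 6 in 3 each and RES replicate 6 in 2. The sign of the difference in means turned in 11 of the 110 genes (10.0%) when the top library was left out, and in 4890 of all 13685 genes (35.7%). The 110 genes were chosen for a large fold change, which 1 high library can make and which genes with near-equal means lack. The shares beside all genes are therefore descriptions and no test.

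Within groups, some of the higher genes varied together, while the lower genes as a set did not have a positive median correlation over all 20 animals. For the 7 higher genes, deviations from the group mean on the log2(CPM + 1) scale had a median Pearson correlation of 0.35 over their 21 pairs and 20 animals, as a description of genes measured in the same libraries. Among the 10 ADLIB animals alone the median was 0.45, and 10 of 21 pairs were above 0.5. Among the 10 RES animals alone it was 0.22, with 4 of 21 pairs above 0.5. For the 8 lower genes the median over all 20 animals was -0.07 over 28 pairs, which ran from -0.70 to 0.79. ENSBTAG00000006731 and higher 3 had the closest pattern of the higher genes (r = 0.83), and lower 3 and lower 4 that of the lower genes (r = 0.79). ENSBTAG00000006731 and ENSBTAG00000011327 correlated at 0.90 over the 10 ADLIB animals and at -0.06 over the 10 RES animals. The value of 0.90 was the highest of the 21 pairs of higher genes in ADLIB animals. No correlations of other genes are set beside these, so whether they are unusual was not tested. ADLIB replicate 1 was the highest ADLIB animal in 5 of the 7 higher genes. ADLIB replicate 8 was under the ADLIB median in all 7, and ADLIB replicate 2 above it in all 7. RES replicates 1 and 8 were under the RES median in all 7.

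**Figure D4:**
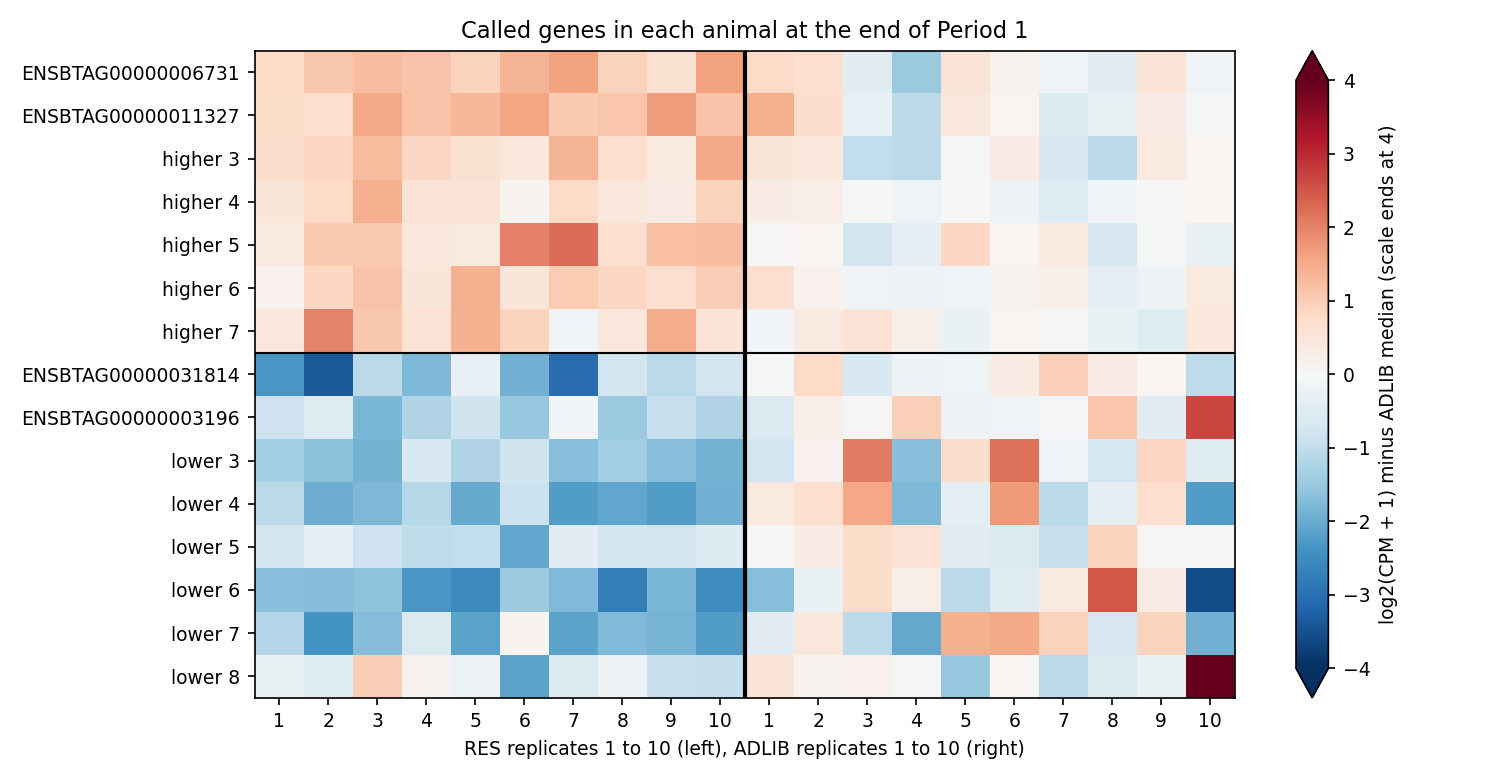
Level of the 15 called genes (rows) in each Period 1 animal (columns, RES at the left and ADLIB at the right), as log2(CPM + 1) minus the median of the 10 ADLIB animals. Red is above and blue below that median, with colours ending at 4 units, and lower 8 stands out in ADLIB replicate 10 alone, at 2734 CPM.

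The library names carry a code number from 1 to 4 whose meaning the labels do not give. Each number held between 2 and 4 libraries of each group. The mean difference between RES and ADLIB animals had the same sign within all 4 numbers for 13 of the 15 genes. It did so within 3 for lower 7 and within 2 for lower 8. The 15 genes were chosen for their difference in these same libraries, so the agreement in sign is a description and no test. With the number as a factor, the likelihood ratio test called 11 genes under 0.1, 10 of them among the 15. ENSBTAG00000006731 and ENSBTAG00000003196 were then called under 0.001, and limma called 0 genes.

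Of the 15 genes, 13 were also listed for Period 2, in other animals and when RES bulls too were fed without limit. In that period limma called 0 of 13605 genes under 0.1, and 280 (2.06%) had an unadjusted p under 0.05. ENSBTAG00000006731 was at 23.8 ± 10.5 CPM in RES and 33.1 ± 7.95 CPM in ADLIB animals (SD, n = 10 each), a difference of -0.70 (SE 0.36) on the log2(CPM + 1) scale. RES replicate 1 of Period 2 was at 1.48 CPM, and without that library, in which 585 genes were at 0, the difference was -0.36 (SE 0.19). ENSBTAG00000011327 was at 20.9 ± 11.9 and 21.6 ± 12.3 CPM, a difference of -0.23 (SE 0.41), and of 0.10 (SE 0.29) without that library.

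ENSBTAG00000031814 was at 34.4 ± 16.1 CPM in RES and 31.6 ± 28.8 CPM in ADLIB animals of Period 2, a difference of 0.28 (SE 0.35). ENSBTAG00000003196 was at 30.0 ± 24.4 and 17.7 ± 5.50 CPM, a difference of 0.36 (SE 0.36), and of 0.18 (SE 0.33) without RES replicate 1 of Period 2. Of the 7 higher genes, 6 had a Period 2 difference of the opposite sign, and 5 without that library. Of the 6 lower genes listed, it was 3, and 4 without that library. The sign was also opposite in 68.0% of all 13509 shared genes, and in 59.3% without that library. None of the 13 had a limma false discovery rate under 0.1 in Period 2.

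The change in the difference from 1 period to the next was tested as the interaction of group and period, with the 2 periods scaled separately. limma gave 0 of 13509 shared genes under 0.1, with 877 (6.49%) at an unadjusted p under 0.05. For ENSBTAG00000006731 the Period 1 difference exceeded that of Period 2 by 1.83 (SE 0.44, limma false discovery rate 0.565). The likelihood ratio test called 19 shared genes under 0.1 (0.141%), of which 1 was also under 0.001. It called 8 of the 13 genes, 4 higher and 4 lower, and 7 without RES replicate 1 of Period 2, but the Period 1 difference that chose the genes is part of the interaction, so the count is a description. Lower 8, which rests on 1 library in Period 1, was among the 8 at 0.0453. Higher 5 and lower 5 were both at 0.00801, and at 0.0220 and 0.0382 without that Period 2 library. Among the genes given by identifier the rate was 0.0577 for ENSBTAG00000006731, 0.470 for ENSBTAG00000011327, 0.228 for ENSBTAG00000031814 and 0.00801 for ENSBTAG00000003196. Without RES replicate 1 of Period 2 these rates were 0.0274, 0.836, 0.585 and 0.0382, in the same order.

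**Figure D5:**
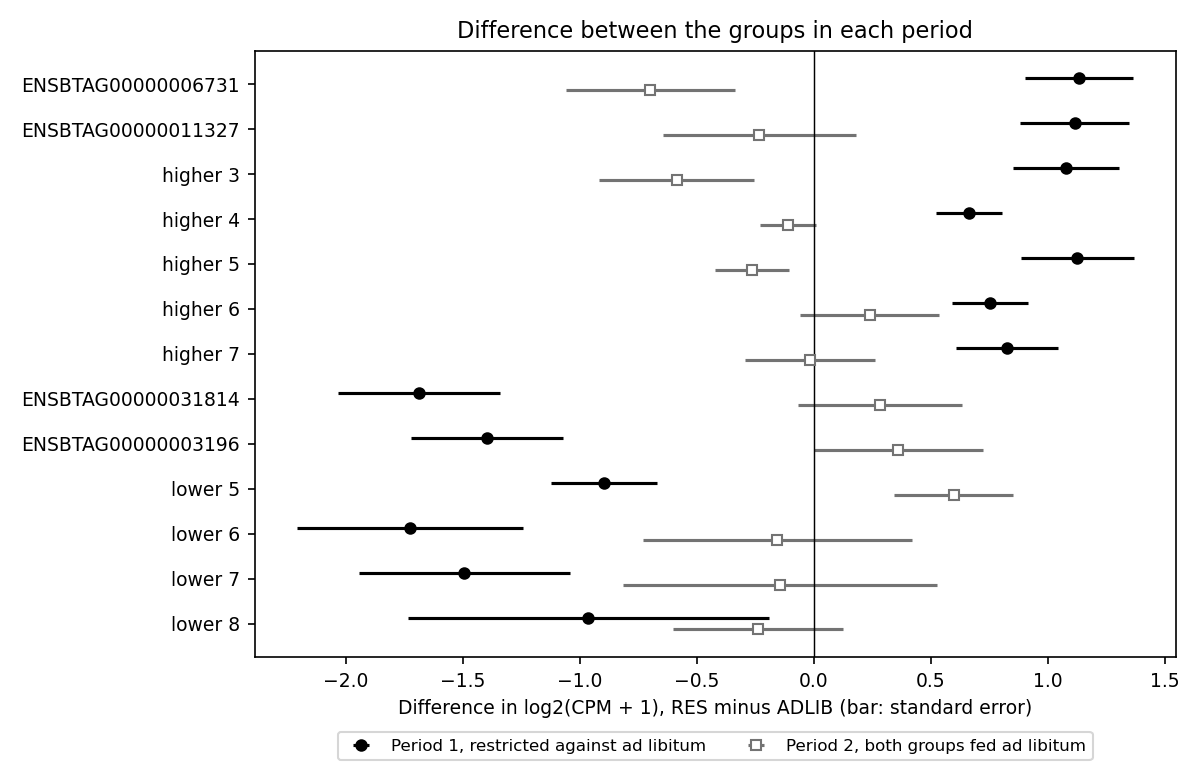
Difference in log2(CPM + 1), RES minus ADLIB, for the 13 called genes listed in both periods, with standard errors, in Period 1 (filled circles) and Period 2 (open squares). The Period 1 differences run from -1.73 to 1.13, and those of Period 2 from -0.70 to 0.60.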

How the data were processed

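Single-end mRNA libraries were sequenced. Per the study's methods, Trim Galore was used for trimming, TopHat for alignment to UMD3.1, HTSeq for counting on protein-coding genes and edgeR for testing. The submitters' processing notes also name CASAVA 1.4, Bowtie and SAMtools. The study reports genes as differing between RES and ADLIB bulls at the end of restriction, at a strict false discovery threshold. With all 20 animals, 0 genes passed 0.001 here with limma or with the likelihood ratio test. Why fewer were called here was not tested. The study gives its genes by name, so they could not be matched to the identifiers. The values the authors deposited are a signal per gene and library, namely CPM scaled by TMM within the 20 libraries of each period. All listed genes exceeded 1 CPM in 10 or more of them.

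Each value was divided by that of 1 read, and 100% came out whole within 0.02 reads. As the unit is normalised, the main test was limma (version 3.58.1, R 4.3.3) with an intensity trend on log2(CPM + 1), a pseudocount of 1, Benjamini-Hochberg adjustment over all listed genes and a threshold of 0.001. edgeR's (4.0.16) likelihood ratio test on recovered reads was run beside it under 0.1. DESeq2 (1.42.0), quasi-likelihood and voom fits were alternatives. The limma and likelihood ratio tests were tested on simulated reads, with the same dispersion for all genes and no outlying library. Such data cannot show how a single outlying library moves a call. Precision is limited by 4431390 to 8040444 reads per library and by 10 animals per group.

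The labels give both groups replicate numbers 1 to 10. Same-numbered animals deviated with a mean correlation of -0.10, against 0.02 for other pairs. Over the 10 same-numbered pairs it ran from -0.43 to 0.19, too few pairs to exclude a pairing. The labels state none, so the main tests did not treat the animals as paired.

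The 15 genes described are all those the likelihood ratio test called under 0.1. The genes and lists were chosen with earlier results of these data known. As 0 identifiers matched a symbol, the planned gene lists and marker checks were not run, genes were chosen for identification by the smallest limma p in each direction, and no sequence is shown.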

Additional observations from a re-analysis of the deposited data

Results flagged for a closer look

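Within groups of 10 animals, Dixon's test of the most extreme value was made in 40 groups, of which 2 would pass at the 95% level by chance. Gene values were tested on the log2(CPM + 1) scale, so the gaps of genes below are shares of the group's range on that scale, while the levels are in CPM. It was passed in 5, 3 of a gene and 2 of a library measure. For ENSBTAG00000003196 in ADLIB animals of Period 1, replicate 10 was at 154.6 CPM and the next at 51.6 CPM, a gap of 0.478 of the range in log2(CPM + 1). For lower 5 in RES animals, replicate 6 was the lowest at 27.8 CPM and the next at 59.6 CPM, a gap of 0.617 of the range in log2(CPM + 1). For lower 8 in ADLIB animals, replicate 10 was at 2734 CPM and the next at 19.7 CPM, a gap of 0.773 of the range in log2(CPM + 1).

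RES replicate 6 of Period 1 stood apart in genes at 0, 87 against at most 18 (0.831 of the range). It also did so in the correlation of its log2(CPM + 1) values with the median of the other libraries, 0.883 against 0.95 for the next lowest (0.687 of the range). Its part in the results was not tested beyond the values given without it.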

How the results depend on the processing

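With limma, 0 genes passed 0.001 under every alternative fitted with it, leaving out each animal and the replicate block included. DESeq2 called 2 genes at that threshold, both lower. Under 0.1, added after seeing the data, a single limma fit of all 40 libraries called 2 genes, higher 4 and higher 5.

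The count of 15 was 0 under 0.001, 5 under 0.01, 0 with the quasi-likelihood test, 0 with limma-voom (also with sample weights), 34 with robust dispersions (14 shared), 9 with the replicate block (8 shared; the samples share only a number) and 11 to 24 on leaving out 1 animal. The 2 calls under 0.001 with the code number were added after seeing the data. Genes with groups that do not overlap were 0 to 1 on leaving out 1 animal, the 1 arising without RES replicate 5, 6 or 9. The interaction had 1 call with the likelihood ratio test, and 19 under 0.1. Period 2 had 1 call with the likelihood ratio test under 0.1. The cause was not tested. No called gene's difference changed sign in any alternative run for it. The planned gene-list alternatives were not run, as no identifier matched a symbol. Counts of 42 reads or fewer in RES libraries limit lower 3 and lower 4.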
